A study of Homo sapiens with 4 samples.

Results

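Broad poly(A) sites are 3′ end processing sites at which cleavage was spread over several neighbouring nucleotides instead of falling mainly on a single position. They were described in HEK293 cells, a human embryonic kidney line, with A-seq, which counts the 3′ ends of polyadenylated transcripts at nucleotide resolution. The 4 groups were cells given an siRNA against CstF-64, cells given an siRNA against CF Im 68, cells given the scrambled control siRNA and cells given no siRNA. Each group had 1 library, the siRNA-treated cells were taken 3 days after transfection, and all 4 libraries came from the same cell line. Per the labels, depletion was checked by Western blot, whose values were not used here. The targeted transcripts were not checked in these counts, because no annotation of hg19 was used here.

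Read positions of the 4 libraries on chromosomes 1 to 22 and X were pooled, and on each strand the most read position took all positions within 25 nt, which made 1151893 sites. Of these, 4250 had at least 200 reads in every library. A site was called broad when its most read position held at most 50% of the reads in the control siRNA library and also in the no siRNA library. This gave 945 broad sites, 479 on the plus strand and 466 on the minus strand, against 3305 other sites of the same minimum depth. The shares in the control libraries chose the members, so the spread in these libraries is a description and not a finding. No group had a replicate, so no p-value is given, and every call is one of size against both control libraries.

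Cleavage of a pre-mRNA takes place a short way downstream of the AAUAAA signal. The CPSF complex recognises this signal and also makes the cut, and a poly(A) polymerase then adds the tail. Downstream of the cut, U-rich and GU-rich RNA is contacted by CstF-64, a part of the cleavage stimulation factor CstF. CF Im 68 belongs to cleavage factor I (CF I), whose smaller subunit holds UGUA elements on the upstream side. The position of the cut is known to vary by a few nucleotides at many sites. Where a cut lies beside an A of the genome, a templated A and the first A of the tail cannot be told apart by such reads, and oligo-dT priming within A-rich stretches was not separated from true 3′ ends.

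The libraries held 7343112 reads after CstF-64 siRNA, 12792623 after CF Im 68 siRNA, 13443454 after control siRNA and 15806975 without siRNA. Broad sites held 12.4% of the reads on chromosomes 1 to 22 and X after CstF-64 siRNA, 12.2% after CF Im 68 siRNA, 12.1% after control siRNA and 12.9% without siRNA. The median broad site had 446 reads after CstF-64 siRNA, 871 after CF Im 68 siRNA, 852 after control siRNA and 973 without siRNA. The CstF-64 library was therefore the least precise. The share of tested sites that were broad ranged from 16.3% on chromosome X (24 of 147) to 30.4% on chromosome 13 (21 of 69), and chromosome 19 held the largest number, 105 of 401.

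The limit of 50% cut through a continuous range of shares. The last site inside it, at chr3:172539258 on the plus strand, had 47.1% of its reads at the most read position without siRNA and stood at the limit after control siRNA. The first sites outside it, at chr19:58826148 on the minus strand and chr12:50158718 on the plus strand, had 44.5% and 44.8% there after control siRNA and passed the limit by less than 1 point without siRNA. Within the broad sites, 544 had a larger control share above 40%, 323 between 30 and 40%, 69 between 20 and 30% and 9 at 20% or below.

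In the mean profile of the broad sites, the most read position held 41.8% of the reads after CstF-64 siRNA, 41.3% after CF Im 68 siRNA, 38.8% after control siRNA and 37.5% without siRNA. At the other sites the same position held 76.4%, 76.1%, 74.7% and 74.3% in these libraries. Most of the spread of broad sites lay close to the most read position. Positions within 10 nt of the most read one held 92.9% of the reads of the broad sites after CstF-64 siRNA, 92.7% after CF Im 68 siRNA, 92.4% after control siRNA and 92.0% without siRNA. The outermost positions, 21 to 25 nt away, held between 1.15 and 1.23% in the 4 libraries. A broad site had a median of 4 positions with at least 5% of its reads each in every library, and at most 9, and a median of 3 positions were enough for 80% of its reads.

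**Figure D1:**
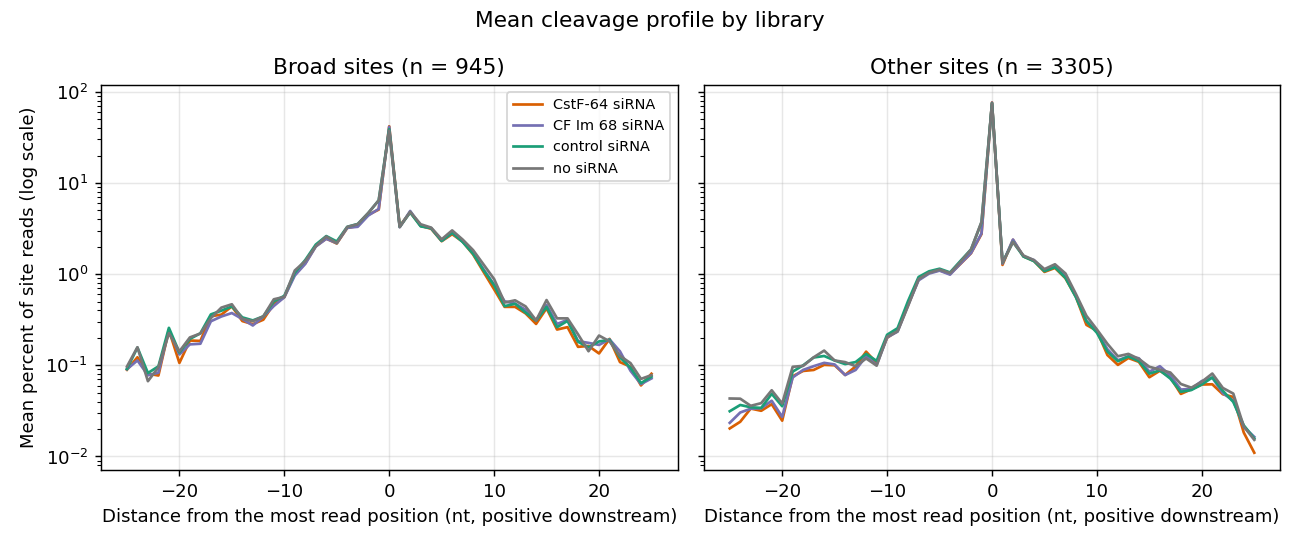
Mean percent of a site's reads at each distance from its most read position (nt, positive downstream; log scale), for the 945 broad sites (left) and the 3305 other sites (right), 1 line per library. The most read position held 37.5 to 41.8% of the reads at broad sites and 74.3 to 76.4% at the others, and in both panels the lines of the 2 depleted libraries lie below those of the controls at 1 nt upstream.

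The second most read position lay 4 to 9 nt from the first at 432 of the 945 broad sites (45.7%, against 40.7% of the other sites) and 2 to 3 nt away at 250 (26.5%, against 27.0%). It lay 1 nt away at 149 (15.8%, against 23.7%) and 10 to 25 nt away at 114 (12.1%, against 8.59%). The 4 to 9 nt class was thus the largest at the other sites as well. At those 114 sites the second cut lay well apart from the first, but the share of reads between them was not measured. The second position lay upstream in 98 of the 149 sites with adjacent positions. It lay upstream in 214 and downstream in 218 of the 432 sites in the 4 to 9 nt class. A second site with at least 10% of the reads lay within 75 nt of 49 broad sites, or 5.19%, against 4.78% of the other sites. In this respect the broad sites and the others differed little.

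The broad sites with the most reads show what a well-measured broad profile looks like. At chr19:55899744 on the plus strand, 47571 reads after CstF-64 siRNA, 60142 after CF Im 68 siRNA, 65902 after control siRNA and 90356 without siRNA were collected. Its most read position held 41.7% (95% interval 41.3 to 42.1), 43.0% (42.6 to 43.3), 40.9% (40.5 to 41.3) and 46.6% (46.3 to 46.9) in that order. A second cut 3 nt upstream held 30.1% after CstF-64 siRNA, 31.1% after CF Im 68 siRNA, 30.8% after control siRNA and 23.9% without siRNA. At this site the no siRNA library stood apart from the other three, and neither depletion differed from control siRNA by as much as control siRNA differed from no siRNA. These intervals are exact Clopper-Pearson intervals and cover counting error only.

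At chr9:130209957 on the minus strand, 5 consecutive positions from 1 nt upstream to 3 nt downstream held 11.5 to 26.3% of the reads each after CstF-64 siRNA, 12.8 to 23.1% after CF Im 68 siRNA, 14.5 to 26.5% after control siRNA and 16 to 26.8% without siRNA. Its cuts thus formed a run of adjacent nucleotides. At chr5:149823794 on the minus strand the most used cuts were instead separated by less used nucleotides: after CstF-64 siRNA 41.2% of the reads lay at the most read position, 16.6% at 2 nt upstream and 24.8% at 4 nt upstream. These were 46.5, 17.0 and 19.5% after CF Im 68 siRNA, after control siRNA 45.1, 17.2 and 18.6%, and without siRNA 46.8, 17.3 and 16.5%. The nucleotide 3 nt upstream, between these cuts, held 5.75, 5.08, 5.23 and 5.14% in the CstF-64, CF Im 68, control siRNA and no siRNA libraries. The cut 4 nt upstream was highest in the CstF-64 library.

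Spread was measured as the effective number of positions, the number of equally used positions that would give the same concentration of reads (the inverse Simpson index, corrected for read number). The broadest site in the controls, chr5:134262750 on the minus strand, had 16 effective positions after CstF-64 siRNA, 14.2 after CF Im 68 siRNA, 15.2 after control siRNA and 15.9 without siRNA. It lies in a stretch of the genome known as a nuclear copy of mitochondrial DNA, so its reads may not be separable from mitochondrial ones, and the same holds for chr1:569953 on the plus strand, with 9.46, 11, 7.88 and 9.50. Among the broadest sites elsewhere, chr12:120720668 on the plus strand had 8.43 after CstF-64 siRNA, 10.5 after CF Im 68 siRNA, 9.40 after control siRNA and 10.3 without siRNA. The site at chr4:165865196 on the plus strand spread its reads over 8 consecutive positions and had 8.03, 8.17, 8.43 and 8.16 effective positions, and chr5:180490551 on the plus strand had 7.94, 7.99, 8.32 and 8.09. None of the 6 broadest sites was called wider or narrower in either depleted library.

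The typical broad site was a little narrower after both depletions. Its median effective number was 3.36 positions after CstF-64 siRNA, 3.42 after CF Im 68 siRNA, 3.63 after control siRNA and 3.68 without siRNA. Per site, the effective number after CstF-64 siRNA was a median of 0.943 times that after control siRNA and 0.936 times that without siRNA, and it was lower at 75.6% and 69.8% of the 945 sites. The medians after CF Im 68 siRNA were 0.955 and 0.950, with lower values at 70.4% and 65.7%. Between the controls the median was 0.998 (control siRNA over no siRNA), with lower values at 51.1%. Over all 4250 tested sites the same medians were 0.965 and 0.962 after CstF-64 siRNA, 0.973 and 0.969 in the CF Im 68 library, and 0.998 between the controls. The lower spread after both depletions was thus also present in the tested sites as a whole.

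Because the controls chose the members, the fold was also taken against the control that took no part in the choice. In 1114 sites chosen by the no siRNA library alone, the median fold against control siRNA was 0.939 in the CstF-64 library and 0.956 in the CF Im 68 library, with lower values at 76.2% and 69.5% of the sites. In 1090 sites chosen by control siRNA alone, the medians against no siRNA were 0.951 and 0.962, with lower values at 64.7% and 61.5%. Size and direction were thus similar when the choice and the comparison used different libraries. The median difference was small beside the range between sites: the middle 50% of the folds of broad sites ran from 0.869 to 0.997 after CstF-64 siRNA and from 0.889 to 1.01 after CF Im 68 siRNA, both against control siRNA.

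**Figure D2:**
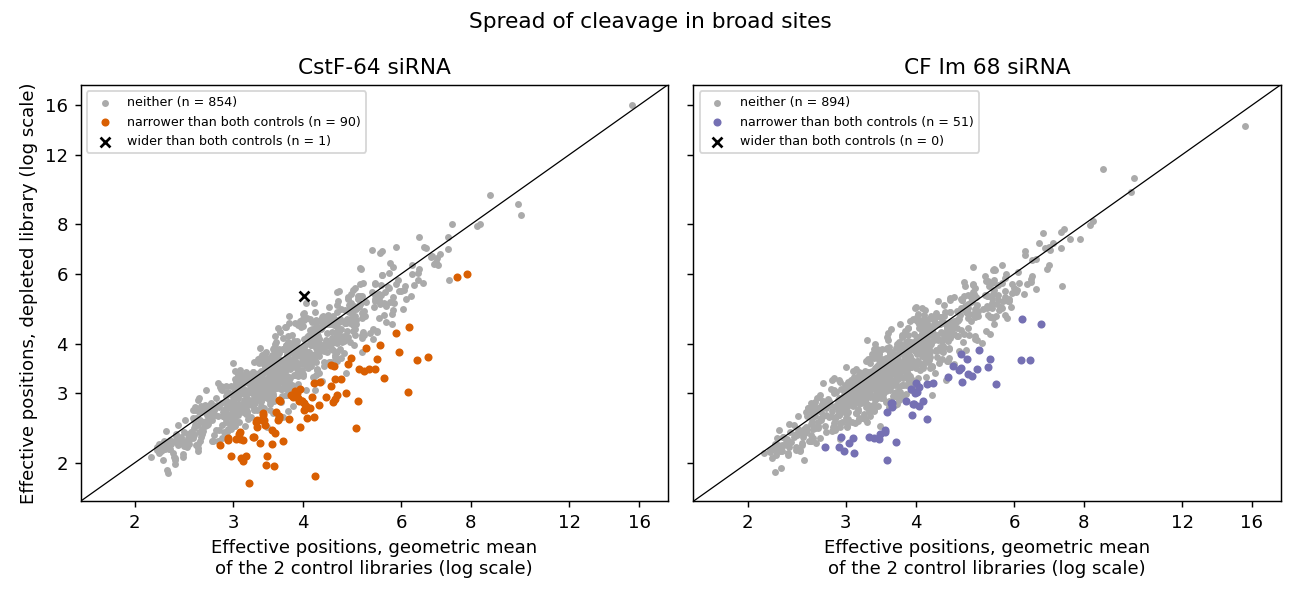
Effective number of cleavage positions of the 945 broad sites in the CstF-64 library (left) and the CF Im 68 library (right), on the vertical axis, against the geometric mean of the 2 control libraries on the horizontal axis (log scales); each point is 1 site and the line marks equality. The 90 sites called narrower in the CstF-64 library and the 51 in the CF Im 68 library lie below the line, and 1 site and 0 sites were called wider.

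A site was called narrower when its effective number was at most 0.8 times that of each control library, and wider when each control's number was at most 0.8 times that of the depleted library. After CstF-64 siRNA, 90 of the 945 broad sites (9.52%) were called narrower, where 5.95% of all tested sites were, and 1 was called wider, where 0.612% of all were. After CF Im 68 siRNA, 51 (5.40%) were called narrower, against 3.04% of all tested sites, and 0 were called wider, against 0.118% of all. Against control siRNA alone, 105 were narrower and 2 wider after CstF-64 siRNA, where 7.25% and 0.776% of all tested sites were, and 65 narrower and 1 wider after CF Im 68 siRNA, where 4.31% and 0.306% were. Against no siRNA alone the numbers were 155 and 15 after CstF-64 siRNA, where 12.8% and 2.82% of all were, and 122 and 16 after CF Im 68 siRNA, where 9.29% and 1.95% were. Since the rule used the spread of the controls, nothing is read from the excess of the broad sites over the background. By the same limits, control siRNA against no siRNA alone called 28 broad sites narrower and 8 wider, where 2.66% and 1.53% of all tested sites were called. With every site thinned to equal reads in the 4 libraries, 8.78% of the broad sites were called narrower in the CstF-64 library and 5.29% in the CF Im 68 library, where 5.79% and 3.25% of all tested sites were.

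At chr16:89629849 on the plus strand, the most read position held 70.0% of the reads after CstF-64 siRNA (95% interval 67.3 to 72.5), 68.7% after CF Im 68 siRNA (66.5 to 70.9), 44.1% after control siRNA (41.7 to 46.5) and 45.0% without siRNA (42.9 to 47.2). The loss fell on 2 upstream cuts. The cut 1 nt upstream held 9.58% after CstF-64 siRNA, 9.60% after CF Im 68 siRNA, 20.8% after control siRNA and 19.5% without siRNA, and the cut 3 nt upstream held 7.31, 6.99, 18.1 and 20.4%. A cut 11 nt downstream held 5.93, 5.61, 5.31 and 4.63% and was similar in all 4 libraries. The effective number was 1.97 after CstF-64 siRNA, 2.04 after CF Im 68 siRNA, 3.62 after control siRNA and 3.48 without siRNA, so the depleted libraries did not overlap with the controls. The site itself was a minor one in its surroundings, with 0.572 to 0.981% of the reads on its strand within 10 kb.

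The same upstream cuts were lower at chr11:77780902 on the minus strand, which had more reads (4329 to 5085 per library). Its most read position held 64.7% after CstF-64 siRNA, 65.0% after CF Im 68 siRNA, 47.5% after control siRNA and 46.6% without siRNA. The cut 1 nt upstream held 5.71, 6.13, 11.8 and 11.1%, and the cut 3 nt upstream 5.45, 5.44, 13.4 and 11.4%. Effective positions were 2.27 and 2.26 in the depleted libraries and 3.62 and 3.76 in the controls.

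At other sites the narrowing fell on more distant cuts, on either side, or differed between the depletions. Sites were ranked by the smaller of their 2 changes against the controls, here and for shift and use. By this ranking the largest narrowing after CstF-64 siRNA was at chr10:1063632 on the plus strand, with 2.45 effective positions after CstF-64 siRNA, 3.36 after CF Im 68 siRNA, 4.58 after control siRNA and 5.40 without siRNA. Its most read position held 61.5% (56.2 to 66.7), 49.8% (46.4 to 53.3), 38.9% (35.1 to 42.8) and 30.2% (26.3 to 34.4), while the cut 7 nt downstream held 3.42, 6.03, 11.2 and 14.8%. The cut 10 nt upstream held 2.56, 7.12, 8.07 and 8.70%. The 4 libraries were thus ordered, and the controls differed from each other as well. At chr19:10596802 on the minus strand the effective number was 1.86 after CstF-64 siRNA, 3.16 after CF Im 68 siRNA, 3.43 after control siRNA and 5.14 without siRNA. Its most read position held 71.8% of the reads after CstF-64 siRNA, 51.3% after CF Im 68 siRNA, 49.6% after control siRNA and 33.6% without siRNA, so that the CstF-64 and no siRNA libraries lay at opposite ends and the other two between them.

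At chr12:67706961 on the plus strand, which was called narrower after CF Im 68 siRNA, effective positions were 3.46 after CstF-64 siRNA, 3.50 after CF Im 68 siRNA, 5.36 after control siRNA and 5.43 without siRNA. The depleted libraries lay well below the controls, which were close to each other. The site called wider after CstF-64 siRNA, chr21:34876241 on the minus strand, had 5.26, 4.66, 4.14 and 3.91 effective positions in that order. Its most read position held 33.1% of 266 reads after CstF-64 siRNA (27.5 to 39.1), against 41.0% after control siRNA (37.7 to 44.4), intervals that overlap, and the call was lost when the site was thinned to equal reads.

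**Figure D3:**
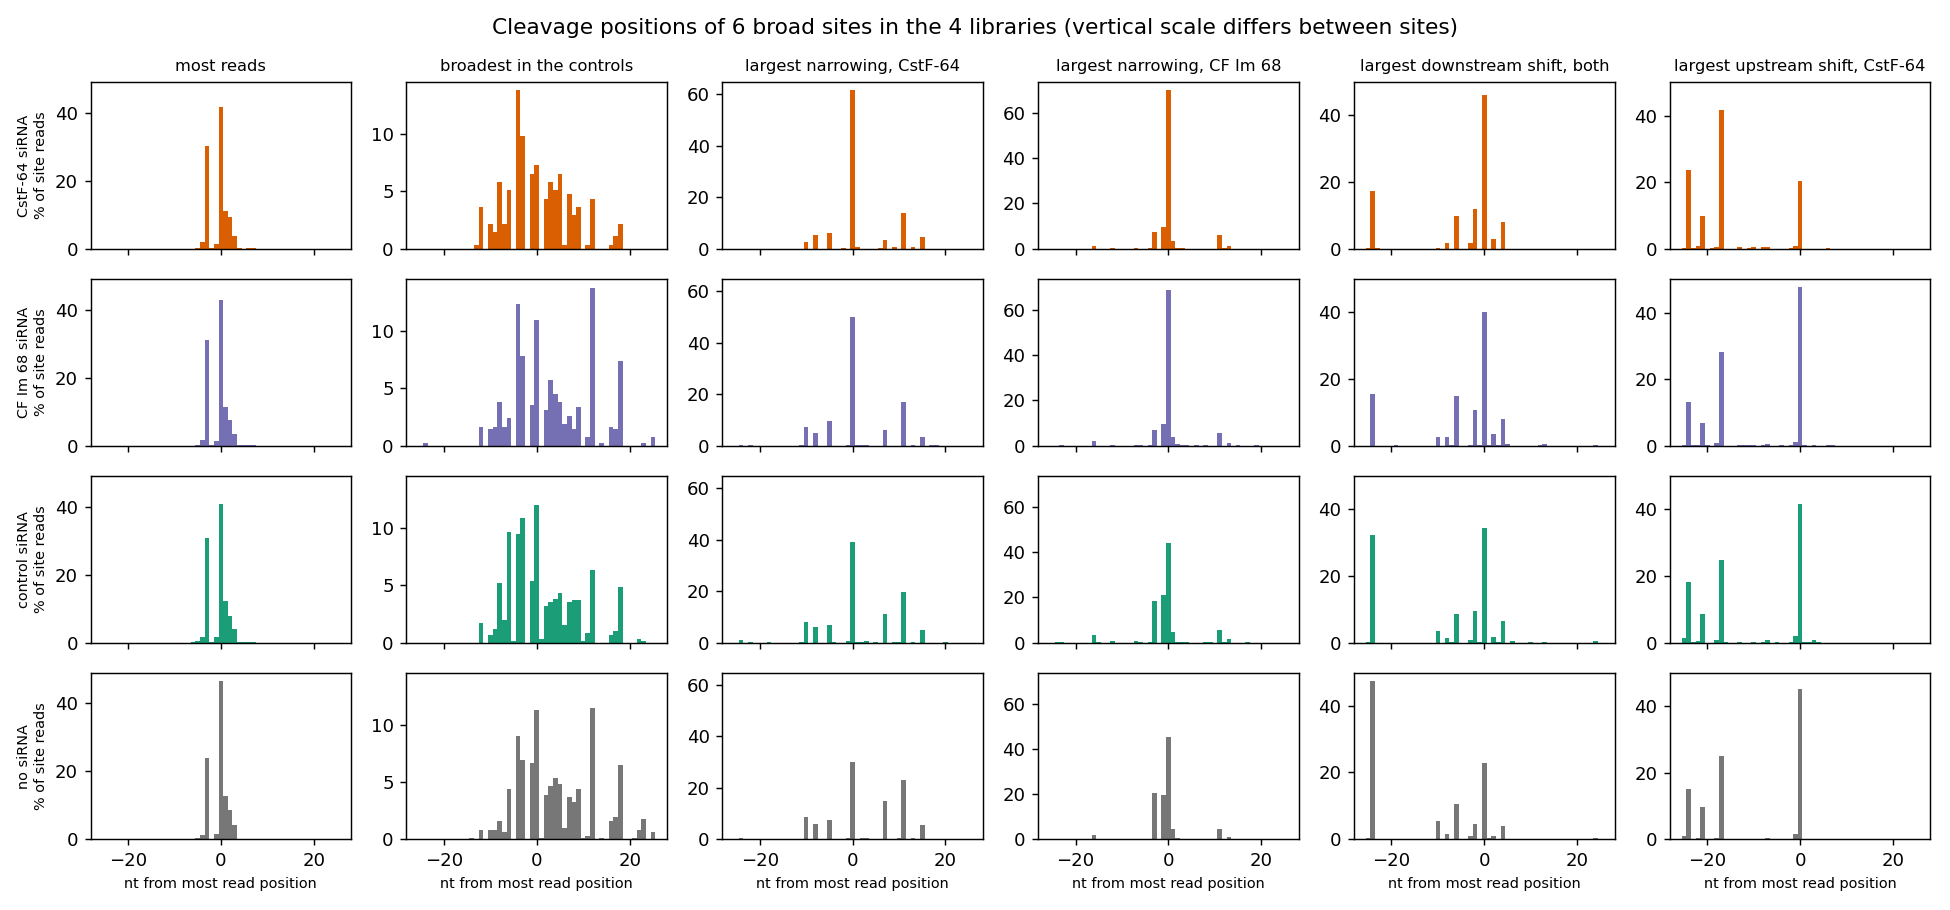
Percent of site reads at each cleavage position (nt from the most read position, positive downstream) at 6 broad sites (columns) in the 4 libraries (rows); vertical scales differ between columns. From left to right the sites are chr19:55899744, chr5:134262750, chr10:1063632, chr16:89629849, chr2:69623259 and chr16:3022794, and at chr16:89629849 the cuts 1 and 3 nt upstream are shorter in both depleted libraries than in both controls.

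The loss at the adjacent upstream nucleotide was seen across sites. At 1 nt upstream of the most read position, broad sites had a mean of 5.10% of their reads after CstF-64 siRNA, 5.19% after CF Im 68 siRNA, 6.44% after control siRNA and 6.46% without siRNA. The ratio of these means was 0.792 for CstF-64 siRNA over control siRNA, 0.806 for CF Im 68 siRNA over control siRNA and 0.998 for control siRNA over no siRNA. At 1 nt downstream the same ratios were 1.02, 0.989 and 1.01, and at 2 nt upstream 0.960, 0.941 and 0.996. Of the 3 nucleotides on either side, the adjacent upstream one had the lowest ratio in both depleted libraries. All upstream positions together held 29.3% of the reads after CstF-64 siRNA, 29.1% after CF Im 68 siRNA, 31.9% after control siRNA and 31.8% without siRNA, so the adjacent nucleotide held a part of the lower upstream share. Low ratios were also found at distant positions with few reads, such as 24 nt upstream, where the means were 0.122% after CstF-64 siRNA, 0.113% after CF Im 68 siRNA, 0.157% after control siRNA and 0.158% without siRNA.

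Site by site, the share 1 nt upstream was below both controls at 502 of 945 broad sites after CstF-64 siRNA (53.1%) and above both at 230, and after CF Im 68 siRNA it was below both at 490 (51.9%) and above both at 208. Over all tested sites it was below both at 53.8% and 51.8% and above both at 22.7% and 20.9%. At the 3305 other sites the mean share was 2.75% after CstF-64 siRNA, 2.80% after CF Im 68 siRNA, 3.69% after control siRNA and 3.75% without siRNA. The change is thus not particular to broad sites, which differ in having more reads there. At 1 nt downstream of the most read position, 339 and 305 broad sites (35.9% and 32.3%) were below both controls. Of all tested sites 42.5% and 36.0% were. Above both were 291 and 293 broad sites (30.8% and 31.0%), against 27.8% and 31.1% of all.

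**Figure D4:**
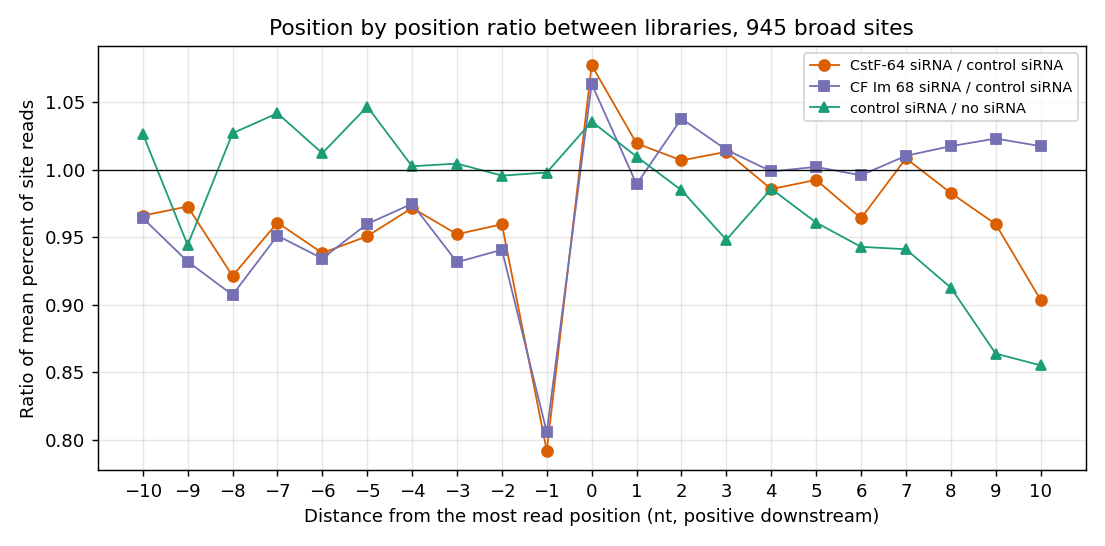
Ratio of the mean percent of site reads between libraries at each distance from the most read position (nt, positive downstream), over the 945 broad sites. At 1 nt upstream the ratio is 0.792 for CstF-64 siRNA over control siRNA, 0.806 for CF Im 68 siRNA over control siRNA and 0.998 for control siRNA over no siRNA.

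In 320 broad sites with at least 5% of the reads at that nucleotide in both controls, the median share there was 10.6% after CstF-64 siRNA, 10.9% after CF Im 68 siRNA, 14.1% after control siRNA and 14.4% without siRNA. Of these 320 sites, 48 (15%) were called narrower in the CstF-64 library and 35 (10.9%) in the CF Im 68 library, where 16% and 10.1% of the 937 tested sites with such a share were. Of the 625 remaining broad sites, 42 (6.72%) and 16 (2.56%) were, against 3.11% and 1.03% of the 3313 remaining tested sites. The controls chose the 320 sites and are also what the call is measured against, so nothing is read from the difference between the classes. With the reads of that nucleotide left out, an alternative chosen after seeing the data, the median fold of broad sites against control siRNA was 0.951 in the CstF-64 library and 0.961 in the CF Im 68 library, in place of 0.943 and 0.955. The adjacent upstream nucleotide thus carried a part of the difference in spread, and most of the median difference was present without it.

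Position along the strand was compared as the read-weighted mean position, and a site was called shifted when it lay at least 1 nt to the same side of both controls with each 95% counting interval excluding 0. After CstF-64 siRNA 31 broad sites (3.28%) were called downstream, where 1.88% of all tested sites were, and 31 upstream, where 1.65% were. After CF Im 68 siRNA 34 (3.60%) were called downstream, against 1.55% of all, and 12 (1.27%) upstream, against 0.494% of all. Calls in both directions were thus few, and after CF Im 68 siRNA more of them were downstream. A wider profile leaves more room for its mean to move, so nothing is read from the excess over the background.

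Position also differed between the controls. Control siRNA against no siRNA alone called 32 broad sites downstream and 82 upstream, where 1.91% and 4.09% of all tested sites were called. The median absolute difference in mean position was 0.294 nt for CstF-64 siRNA and 0.242 nt for CF Im 68 siRNA against control siRNA, and 0.283 nt for control siRNA against no siRNA. Against no siRNA it was 0.436 nt for CstF-64 siRNA and 0.360 nt for CF Im 68 siRNA, both above the difference between the controls. Against control siRNA alone, 49 broad sites were called downstream and 36 upstream after CstF-64 siRNA, where 2.8% and 1.88% of all were, and 55 downstream and 13 upstream after CF Im 68 siRNA, where 2.42% and 0.659% were. Against no siRNA alone the numbers were 84 and 122 after CstF-64 siRNA, where 5.08% and 6.02% of all were, and 84 and 85 after CF Im 68 siRNA, where 4.31% and 4.4% were. The downstream excess after CF Im 68 siRNA was therefore seen against control siRNA and not against no siRNA.

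Few calls of a shift fell on sites with a second position within 3 nt. In the 1 nt class, 2 broad sites (1.34%) were called downstream and 0 upstream after CstF-64 siRNA. Of all tested sites of that class 0.322% and 0.215% were. After CF Im 68 siRNA 3 and 3 were, where 0.536% and 0.322% of all were. In the 2 to 3 nt class the numbers were 1 and 3 after CstF-64 siRNA (0.175% and 0.524% of all). After CF Im 68 siRNA they were 3 and 2 (0.262% and 0.262% of all). Of the 62 broad sites called shifted either way after CstF-64 siRNA, 29 had their second position 10 to 25 nt away and 27 had it 4 to 9 nt away, and of the 46 after CF Im 68 siRNA, 20 and 15 did. Among the 114 sites of the 10 to 25 nt class, 10 (8.77%) were called downstream and 19 (16.7%) upstream after CstF-64 siRNA, where 11.3% and 9.8% of the 398 tested sites of that class were. After CF Im 68 siRNA, 15 (13.2%) were called downstream and 5 (4.39%) upstream, where 9.55% and 2.51% of the tested sites were. Among the 432 sites of the 4 to 9 nt class, 18 (4.17%) were called downstream and 9 (2.08%) upstream after CstF-64 siRNA, against 1.69% and 1.3% of the tested sites of that class, and 13 (3.01%) and 2 (0.463%) after CF Im 68 siRNA, against 1.13% and 0.282%. A distant second cut leaves more room for the mean to move, so nothing is read from the order of the classes.

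At chr2:69623259 on the minus strand, cuts lay at the most read position and 24 nt upstream of it. The upstream cut held 17.3% of 289 reads after CstF-64 siRNA, 15.5% of 489 after CF Im 68 siRNA, 32.2% of 559 after control siRNA and 47.3% of 638 without siRNA. The downstream cut held 46.0% (40.2 to 52.0), 39.9% (35.5 to 44.4), 34.2% (30.2 to 38.3) and 22.9% (19.7 to 26.3). The mean position was 3.49 nt downstream of control siRNA after CstF-64 siRNA (95% interval 2.07 to 4.91) and 3.66 nt after CF Im 68 siRNA (2.42 to 4.89). Both depleted libraries lay downstream of both controls, but the controls differed from each other by a similar amount.

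At chr14:96010960 on the plus strand the controls were alike. Cuts 18 and 17 nt upstream held 3.29% and 16.3% of the reads after CstF-64 siRNA, 4.57% and 17.7% in the CF Im 68 library, 13.0% and 26.0% after control siRNA, and 13.4% and 24.7% without siRNA. The mean position after CstF-64 siRNA was 3.59 nt downstream of control siRNA (2.84 to 4.34) and 3.28 nt downstream of no siRNA (2.53 to 4.04). The CF Im 68 library lay 3.03 nt (2.32 to 3.73) and 2.72 nt (2.01 to 3.43) downstream of them. A like shift was seen at chr1:44456840 on the plus strand, where a cut 15 nt upstream held 16.6% after CstF-64 siRNA, 23% after CF Im 68 siRNA, 36.5% after control siRNA and 41.6% without siRNA.

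Some shifts were called in the CstF-64 library and not in the CF Im 68 library; the difference between the depletions was not tested. At chr16:3022794 on the minus strand, the most downstream cut held 20.4% of 732 reads after CstF-64 siRNA (17.5 to 23.5), 47.6% of 2425 after CF Im 68 siRNA (45.6 to 49.6), 41.5% of 1407 after control siRNA (38.9 to 44.1) and 45.3% of 2332 without siRNA (43.3 to 47.4). Cuts 17 and 24 nt upstream of it held 41.7% and 23.6% after CstF-64 siRNA, 28.0% and 13.2% in the CF Im 68 library, 24.7% and 18.3% after control siRNA, and 25.0% and 15.2% without siRNA. The mean position after CstF-64 siRNA was 4.25 nt upstream of control siRNA (interval of the difference -5.07 to -3.42) and 4.84 nt upstream of no siRNA (-5.59 to -4.09).

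At chr14:24686072 on the minus strand the depletions went in opposite directions. A cut 15 nt upstream held 67.2% of 393 reads after CstF-64 siRNA, 21% of 2122 after CF Im 68 siRNA, 38.7% of 2042 after control siRNA and 32.4% of 3962 without siRNA, and the most read position held 16, 56.8, 37.5 and 45.0%. The CstF-64 library was the most upstream and the CF Im 68 library the most downstream of the 4. The site was also used less after CstF-64 siRNA, with 54.5 RPM (reads of the site scaled by its library's total) after CstF-64 siRNA, 172 after CF Im 68 siRNA, 154 after control siRNA and 254 without siRNA.

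By the smaller of the 2 differences from the controls, the largest upstream shift after CF Im 68 siRNA was at chr11:10328944 on the plus strand. The site at chr1:569953, described above for its mitochondrial copy, lay farther from control siRNA, 2.64 nt upstream, but nearer to no siRNA in that library. A cut 20 nt upstream of the most read position held 10.6% of the reads after CstF-64 siRNA, 23.7% after CF Im 68 siRNA, 15.3% after control siRNA and 14.1% without siRNA, and the mean position was 1.99 nt upstream of control siRNA after CF Im 68 siRNA (interval of the difference -3.03 to -0.96). The cut 1 nt upstream held 9.39, 6.39, 18.9 and 24.0%, so that both depleted libraries were low at the adjacent nucleotide while the distant cut was high in the CF Im 68 library. At chr2:47614070 on the plus strand the adjacent upstream nucleotide likewise held 8.04% after CstF-64 siRNA, 7.65% after CF Im 68 siRNA, 23.2% after control siRNA and 22.6% without siRNA. A cut 16 nt upstream held 22.1, 22.9, 16.8 and 12.7% there.

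Which cut was the most read one also changed at some sites. The control libraries shared their most read position at 720 of the 945 broad sites and differed at 225 (23.8%). They differed at 6.52% of all tested sites. Among the 720, the CstF-64 library had another most read position at 124 (17.2%), 71 downstream and 53 upstream, where 4.38% of all tested sites with a shared position did. The CF Im 68 library had another one at 112 (15.6%), 73 downstream and 39 upstream, where 3.7% did. The overlap of a site's profile between libraries had a median of 90.0% for CstF-64 siRNA with control siRNA, 90.9% for CF Im 68 siRNA with control siRNA and 92.1% for control siRNA with no siRNA. With no siRNA the overlap was 86.5% for CstF-64 siRNA and 88.0% for CF Im 68 siRNA. Over all tested sites the medians with control siRNA were 94.1% for CstF-64 siRNA and 94.7% for CF Im 68 siRNA. With no siRNA they were 92.1% and 93.3%, and between the controls 95.1%. Counting noise lowers the overlap of a shallower library, and its part in these values was not tested.

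Use of the broad sites was compared as RPM on chromosomes 1 to 22 and X. Few sites changed by at least 2-fold against both controls. After CstF-64 siRNA 7 broad sites were called higher (0.741%), where 0.988% of all tested sites were, and 21 lower (2.22%), where 2.68% of all were. After CF Im 68 siRNA 22 were called higher (2.33%), against 2.49% of all, and 8 lower (0.847%), against 1.2% of all. These shares are near the background, so the use of broad sites gave no result of its own. The minimum of 200 reads in every library removes sites that dropped far after a depletion. With that minimum in the controls alone, 6.59% of 1518 broad sites were called lower in the CstF-64 library and 2.37% in the CF Im 68 library, where 8.11% and 2.63% of all tested sites were. RPM measures transcript level and choice of site together, so that fewer transcripts and less use of a site cannot be told apart. Control siRNA against no siRNA alone called 36 broad sites higher and 6 lower, where 5.01% and 1.55% of all tested sites were called. Against control siRNA alone, 10 were higher and 30 lower after CstF-64 siRNA (2.07% and 3.86% of all), and 30 higher and 12 lower after CF Im 68 siRNA (3.76% and 2.02% of all). Against no siRNA alone, 106 were higher and 68 lower after CstF-64 siRNA (12% and 7.86% of all), and 111 higher and 50 lower after CF Im 68 siRNA (11.8% and 5.46% of all).

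The highest-ranked increase in use after CF Im 68 siRNA was at chr9:123299270 on the plus strand, with 55.1 RPM after CstF-64 siRNA, 138 after CF Im 68 siRNA, 30.8 after control siRNA and 18.3 without siRNA. It was the sole large site of its strand within 10 kb, with 99.7% of the reads there after CstF-64 siRNA, 99.9% after CF Im 68 siRNA, all of them after control siRNA and 99.7% without siRNA. Its effective number of positions was 4.59, 4.41, 4.36 and 4.75, and it was thus used more while its profile stayed close to that of the controls.

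At chrX:150573633 on the plus strand the RPM was 62.8 after CstF-64 siRNA, 192 after CF Im 68 siRNA, 39.5 after control siRNA and 46.1 without siRNA. Its share of the reads on the strand within 10 kb was 48.2% after CstF-64 siRNA, 78.9% after CF Im 68 siRNA, 33.9% after control siRNA and 36.2% without siRNA. The largest other site lay downstream. Here the total and the share among neighbours were both highest in the CF Im 68 library.

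The opposite was seen at chr2:135927859 on the plus strand, whose largest neighbour lay upstream. It had 33.6 RPM after CstF-64 siRNA, 20.2 after CF Im 68 siRNA, 46.3 after control siRNA and 49.1 without siRNA. Its share among neighbours was 64.4, 34.5, 67.3 and 68.7%. The CF Im 68 library was lowest on both measures.

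The largest decrease after CstF-64 siRNA was at chr19:39999109 on the plus strand, with 28.4 RPM after CstF-64 siRNA, 87.8 after CF Im 68 siRNA, 110 after control siRNA and 159 without siRNA. Its cuts lay 10 nt apart and held 43.9% and 42.9% of the reads after CstF-64 siRNA, 42.6% and 36.7% in the CF Im 68 library, 39.7% and 39.6% after control siRNA, and 40% and 42.0% without siRNA. The balance between them was similar in the 4 libraries, while the site as a whole was at 0.258 times control siRNA and 0.179 times no siRNA after CstF-64 siRNA. At chr17:7482323 on the plus strand the RPM was 67.0 after CstF-64 siRNA, 157 after CF Im 68 siRNA, 219 after control siRNA and 338 without siRNA. The largest increase after CstF-64 siRNA was at chr9:132397878 on the plus strand, with 209, 138, 82.1 and 78.4 RPM in that order. The CstF-64 library was the highest of the 4 there, and the CF Im 68 library was also above both controls.

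At chr17:79825595 on the minus strand both depletions were high in use, with 441 RPM after CstF-64 siRNA, 441 after CF Im 68 siRNA, 189 after control siRNA and 210 without siRNA. Its cut 1 nt upstream held 35.0% of the reads after CstF-64 siRNA, 29.0% after CF Im 68 siRNA, 22% after control siRNA and 12.3% without siRNA, which is the reverse of the mean over broad sites. Its higher call after CstF-64 siRNA was lost under both other scalings of library size. At chr5:68660571 on the minus strand the use was 113, 52.3, 52.5 and 37.5 RPM in that order, and the cut 1 nt upstream held 26.6, 28.4, 40.4 and 46.1% of the reads. There both depleted libraries were low at the adjacent nucleotide, while the CstF-64 library alone was called higher in use.

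Use among neighbouring sites was compared as the share of the reads on the strand within 10 kb, for the 591 broad sites where other positions held at least 5% of those pooled reads. The remaining 354 broad sites stood alone. A change of at least 10 percentage points against both controls was called higher in 40 broad sites after CstF-64 siRNA (6.77%), against 6.57% of the 2589 tested sites with neighbours, and lower in 25 (4.23%), against 4.13% of all. After CF Im 68 siRNA it was called higher in 45 (7.61%), against 6.8% of all, and lower in 74 (12.5%), against 14.1% of all. Between the controls, by control siRNA against no siRNA alone, 50 were called higher and 46 lower, where 8.3% and 7.26% of all were called. Against control siRNA alone, 55 were higher and 27 lower after CstF-64 siRNA (9.54% and 5.29% of all), and 59 higher and 87 lower after CF Im 68 siRNA (9.31% and 17.5% of all). Against no siRNA alone, 105 were higher and 84 lower after CstF-64 siRNA (17.1% and 12.1% of all), and 85 higher and 130 lower after CF Im 68 siRNA (13.8% and 21.8% of all). Broad sites were thus near the background in these shares.

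The direction after CF Im 68 siRNA went with the side of the largest neighbour. Of the 281 broad sites whose largest other site lay upstream, 62 were called lower after CF Im 68 siRNA (22.1%, against 23.4% of all tested sites of that kind). Called higher were 6 (2.14%, against 1.59% of all). Of the 310 whose largest other site lay downstream, 12 were called lower (3.87%, against 4.49% of all) and 39 higher (12.6%, against 12.2% of all). Where the neighbour was upstream, the median share of the broad site was 73.7% after CstF-64 siRNA, 66.0% after CF Im 68 siRNA, 73.1% after control siRNA and 74.2% without siRNA. The median difference per site after CF Im 68 siRNA was -3.53 points against control siRNA and -4.83 points against no siRNA, and -1.17 points between control siRNA and no siRNA. After CstF-64 siRNA it was 0.716 and 0.210 points. Where the neighbour was downstream, the medians against control siRNA and no siRNA were 1.76 and 1.53 points after CstF-64 siRNA. They were 1.14 and 1.58 points after CF Im 68 siRNA, and -0.202 points between the controls. A rise with the neighbour downstream was thus seen after both depletions. After CstF-64 siRNA, 16 of the 281 were called lower (5.69%, against 5.46% of all tested sites of that kind) and 11 higher (3.91%, against 3.79%), and 9 of the 310 lower (2.90%, against 2.76%) and 29 higher (9.35%, against 9.45%). With the largest neighbour upstream, broad sites were thus called lower after CF Im 68 siRNA about as often as tested sites of that kind. The neighbour's own use was not compared. Without an annotation, the other reads within 10 kb may belong to another gene.

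**Figure D5:**
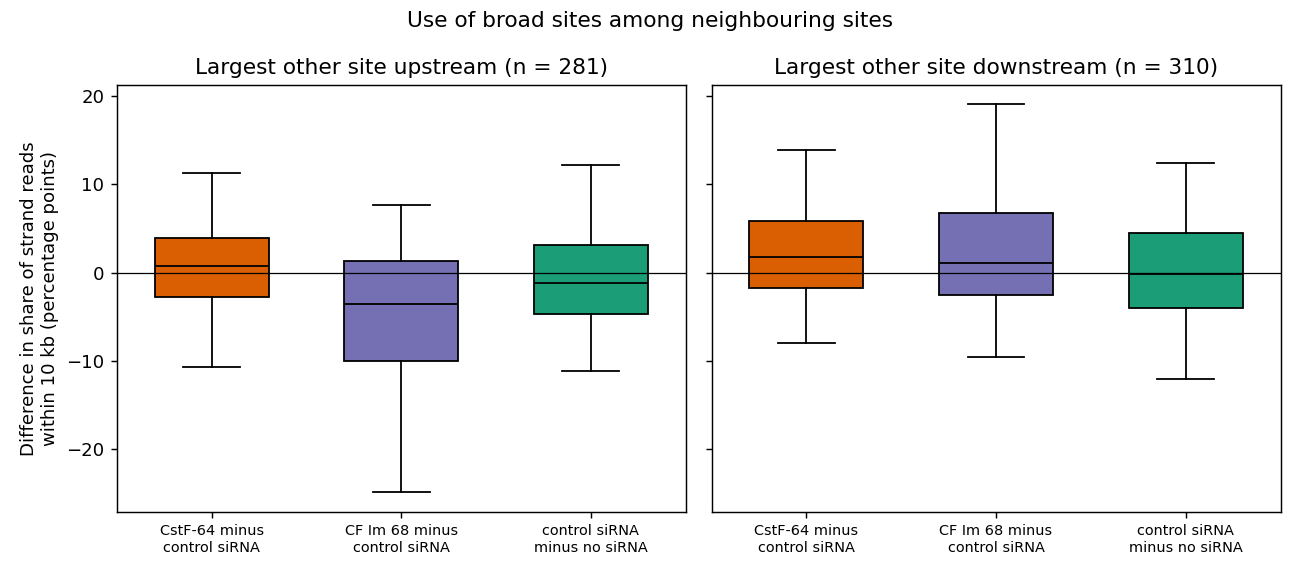
Difference in the share of the strand's reads within 10 kb (percentage points) for broad sites whose largest other site lies upstream (left, n = 281) or downstream (right, n = 310); boxes show the middle 50% with the median, whiskers the 5th and 95th percentiles. With the neighbour upstream, the median is -3.53 points for CF Im 68 siRNA minus control siRNA and -1.17 points for control siRNA minus no siRNA. With the neighbour downstream, it is 1.76 points for CstF-64 siRNA and 1.14 points for CF Im 68 siRNA, each minus control siRNA.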

How the data were processed

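The 4 A-seq libraries came from HEK293 cells, 1 each for CstF-64 siRNA, CF Im 68 siRNA, control siRNA and no siRNA. The labels' protocols describe oligo-dT selection, partial RNase I digestion and reverse transcription from an anchored oligo-dT primer that starts where the tail begins. The authors deposited raw counts of reads for each 3′ end nucleotide and strand, not normalized. Coordinates refer to hg19 (GRCh37), per the submitters' processing notes. They are printed 1-based. For aligner, trimming and multiple matches, the method is not given in the sources used here. In the deposited running numbers, 10.2% were absent after CstF-64 siRNA, 11.3% after CF Im 68 siRNA, 10.8% after control siRNA and 12.2% without siRNA, and what was taken out, if anything, is not known here. No molecular identifiers are named, so intervals cover counting error only.

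Sites, effective positions, mean positions, RPM and locus shares were computed in Python 3.11.15 with numpy 2.4.6 and pandas 2.3.3, and exact binomial intervals with scipy 1.17.1. The calls of narrower spread and of shift were tested on simulated data, and the rules for use and locus share were not. RPM used each library's total on chromosomes 1 to 22 and X; edgeR 4.0.16 (TMM factors) and DESeq2 1.42.0 (size factors) in R 4.3.3 gave alternative scalings only. Limits were 0.8-fold or its inverse for spread, 1 nt for shift, 2-fold for use and 10 points for locus share, against both controls, with no test. Sites named in the text were, for each depletion and measure, among the 4 called sites with the largest change in each direction (by the smaller of the changes against both controls), the 6 broadest, the 4 most read and the 3 on each side of the 50% limit. Members, lists and limits were chosen with earlier results of these data known. No sequence, gene name or gene feature of a site is given, since no genome or annotation of hg19 was used here.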

Additional observations from a re-analysis of the deposited data

Results flagged for a closer look

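Reads on the mitochondrial chromosome took no part in the comparisons. They made up 1.79% of all reads in the CstF-64 siRNA library and 3.75% in the CF Im 68 siRNA library, against 1.53% after control siRNA and 1.17% without siRNA. Both depleted libraries were above both controls, with 1 library in each group and no test. The RPM of the broad sites was scaled to chromosomes 1 to 22 and X and does not include these reads.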

How the results depend on the processing

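All values below are percent of the broad sites called, with CstF-64 siRNA before CF Im 68 siRNA, unless a number of sites is named. Where no share of all tested sites stands beside them, they describe dependence on the processing and not a trait of broad sites. In the report 9.52% and 5.40% were called narrower, 0.106% and 0 wider, 3.28% and 3.60% downstream, 3.28% and 1.27% upstream, 0.741% and 2.33% higher and 2.22% and 0.847% lower in use, and 6.77% and 7.61% higher and 4.23% and 12.5% lower in locus share. Of 256 recomputed shares, 166 stayed within the 95% interval of the reported one and 90 moved out of it, and of 10 recomputed numbers of sites 5 stayed within 1.5 times 945. Against no siRNA alone (added after seeing the data), 16.4% and 12.9% were narrower, 1.59% and 1.69% wider, 8.89% and 8.89% downstream, 12.9% and 8.99% upstream, 11.2% and 11.7% higher and 7.20% and 5.29% lower in use, and 17.8% and 14.4% higher and 14.2% and 22% lower in locus share. With sites chosen in control siRNA and compared with no siRNA, the same shares were 14.7% and 11.5%, 2.66% and 2.84%, 8.72% and 8.53%, 13.4% and 9.45%, 10.7% and 11.1%, 7.06% and 5.23%, 16.8% and 13.8%, and 13.9% and 21.9%. With sites chosen in no siRNA and compared with control siRNA, 12.7% were narrower after CstF-64 siRNA, and 5.21% and 5.21% downstream. Against control siRNA alone (also added), 5.19% and 5.82% were downstream, and 9.31% were higher in locus share after CstF-64 siRNA. A limit of 40% left 401 sites, with 0 wider and 0.249% higher in use after CstF-64 siRNA, and 0.249% lower in use after CF Im 68 siRNA; a limit of 60% gave 1557 sites. A minimum of 100 reads gave 1584 sites, with 4.17% higher in use after CF Im 68 siRNA. A minimum of 500 reads gave 412 sites, with 0 wider, 1.70% downstream and 0.971% lower in use after CstF-64 siRNA, and 0.728% higher in use and 1.88% higher in locus share after CF Im 68 siRNA. A minimum of 200 reads in the controls alone (added) gave 1518 sites, with 6.59% and 2.37% lower in use, 4.84% higher and 7.31% lower in locus share after CstF-64 siRNA, and 16.6% lower after CF Im 68 siRNA. A reach of 10 nt gave 7.23% narrower after CstF-64 siRNA, 1.29% and 0.387% downstream, 1.03% and 0.258% upstream, and 9.65% lower in locus share after CF Im 68 siRNA; a reach of 50 nt gave 5.12% downstream after CstF-64 siRNA.

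At a reach of 10 nt the shift changed sign against a control or both in 9 comparisons at 6 named sites, because the distant cuts fall outside the site. The values given are the difference from the control that lay farthest in the new direction, and all were small. After CstF-64 siRNA this difference was -0.24 nt at chr14:96010960, -0.24 nt at chr1:44456840, -0.0053 nt at chr17:73262457 and 0.26 nt at chr14:24686072. After CF Im 68 siRNA it was -0.13 nt at chr2:69623259, -0.28 nt at chr14:96010960, -0.046 nt at chr14:24686072, -0.12 nt at chr1:44456840 and 0.16 nt at chr11:10328944. Measured by the standard deviation of positions, 4.76% and 2.22% were narrower, against 12.9% and 6.47% of all tested sites, and 0.635% and 0.423% wider, against 2.14% and 2.26%, so that by this measure broad sites were called less often than all tested sites; by a change of 5 points in the most read position's share, 29.6% and 24.1% were narrower, against 19.6% and 14.8% of all, and 8.36% and 5.71% wider, against 6.47% and 4.92%. Thinning to equal reads, and leaving out sites with a close neighbour, each gave 0 wider after CstF-64 siRNA. Without the nucleotide 1 nt upstream (added), 7.62% and 3.81% were narrower. By the median position, a looser rule without the counting interval, 12.1% and 12% were downstream, against 3.81% and 3.62% of all tested sites. Upstream were 9.21% and 6.88%, against 3.04% and 2.07% of all. At 2 nt, 0.741% and 0.423% were downstream and 0.741% and 0 upstream. At 1.5-fold, 1.48% and 0.529% were narrower, 0 wider after CstF-64 siRNA, 7.09% and 9.10% higher and 7.72% and 4.13% lower in use. At 20 points, 0.846% and 1.18% were higher and 0.677% and 4.57% lower in locus share. TMM and DESeq2 scaling changed 1 named call, the higher use of chr17:79825595 after CstF-64 siRNA, with log2 folds of 0.99 and 0.97. The cause of the other changes was not tested. No paired analysis was possible because each group had 1 library.

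With 1 library per group, differences between cultures or library preparations cannot be told apart from those of the siRNAs, and the controls also differed from each other, with 32 broad sites called downstream, 82 upstream, 36 higher and 6 lower in use. Against no siRNA alone, each depletion gave more calls of shift and of use in all than the controls did. With control siRNA alone as the reference, each depletion gave fewer calls of shift in all than the controls did, and no more of use. Depth limits the CstF-64 library most, where the median broad site had 446 reads. The 200-read minimum hides sites lost after a depletion. Internal priming, multiple matches and PCR copies were not separated, and no genome sequence was used to place the cuts.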
